A study of Mus musculus with 4 samples.

Results

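The cytochrome P450 genes of the kidney were compared between Th3 mice and control mice. Members were taken by name from the array annotation (Cyp followed by a family number, a subfamily letter and a gene number, or Cyp51, with Cyp27b1 and Cyp24a1 left out) and had to give, on each of the 4 arrays, a signal well above background in at least 1 dye. Of 71 such gene names on the array, 53 passed this signal rule, among 27573 names in all. The fit across all genes held 51 of them among 17628 genes. Cyp2b9 and Cyp4x1 were not tested because neither their Th3 nor their control signals were well above background on all 4 arrays. Th3 is a mouse line in which both adult beta-globin genes, beta-major and beta-minor, are deleted, and it serves as a model of beta-thalassemia. The labels give neither the zygosity of the deletion nor the sex, age or strain background of either group, and they do not say whether each sample was a separate animal. The design counts 4 Th3 and 4 control kidney RNA samples, paired on 4 two-colour arrays, with Th3 in Cy5 on arrays 1 and 2 and in Cy3 on arrays 3 and 4.

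P450 enzymes are haem proteins that insert oxygen into small lipophilic molecules with electrons passed on by P450 reductase or, in mitochondria, by ferredoxin. In kidney they are found mainly in the proximal tubule. CYP4 enzymes hydroxylate fatty acids and make 20-HETE from arachidonic acid, CYP2C and CYP2J enzymes make epoxides of arachidonic acid that act on vessels and salt transport, and others act on sterols, steroids, retinoids, vitamin D and foreign compounds. Many family members lie in tandem gene clusters and differ between the sexes in rodents.

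Fold changes below are log2 ratios of Th3 over control with the SD over the 4 arrays, and a gene was called when limma's adjusted p was under 0.05. Signals are log2 intensities after normalization and are set side by side only for 1 probe. Of the 51 tested P450 genes, 19 were higher and 9 lower in Th3 kidney, and 23 were not called. Over all genes tested 21.5% were called, 10.9% higher and 10.6% lower, against 54.9%, 37.3% and 17.6% of the P450 genes. The median ratio of the P450 genes was 0.13, against 0.00 for all genes, and the median size of the ratio was 0.29, against 0.11. In 12 P450 genes (23.5%, against 4.14% of all genes) the ratio exceeded 0.5 in size, and no called P450 gene reached a change of 2-fold in this fit. With Agilent's processed signals Cyp3a25 (1.70, adjusted p = 0.0105) and Cyp2c37 (1.42, adjusted p = 0.0356) were called past 2-fold. The probes used for both genes were kept only through their Th3 signals, so these calls are not read as a direction. With median centring Cyp4a14 (1.04, adjusted p = 0.000189) and Cyp26b1 (1.04, adjusted p = 0.0260) were called past 2-fold. Leaving out array 2 gave ratios of -1.0045 for Cyp51, 1.15 for Cyp3a41a and 1.61 for Cyp26b1. Without array 3 the ratios were -1.05 for Cyp51 and 1.03 for Cyp4a14, and without array 1 Cyp4a14 had 1.0011. Where only genes well above background in both groups on all 4 arrays were tested, 17 P450 genes were higher and 9 lower of 47, and 22.2% of all genes were called. The Th3 and control signals did not overlap for 17 P450 genes (33.3%, against 21.0% of all genes). Because kidney tissue was measured in bulk, fewer cells of a type and less RNA per cell cannot be told apart. Without the dye term 12 P450 genes were called higher and 4 lower, and with the arrays of each dye orientation treated as a random block 6 were called higher and 3 lower.

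**Figure D1:**
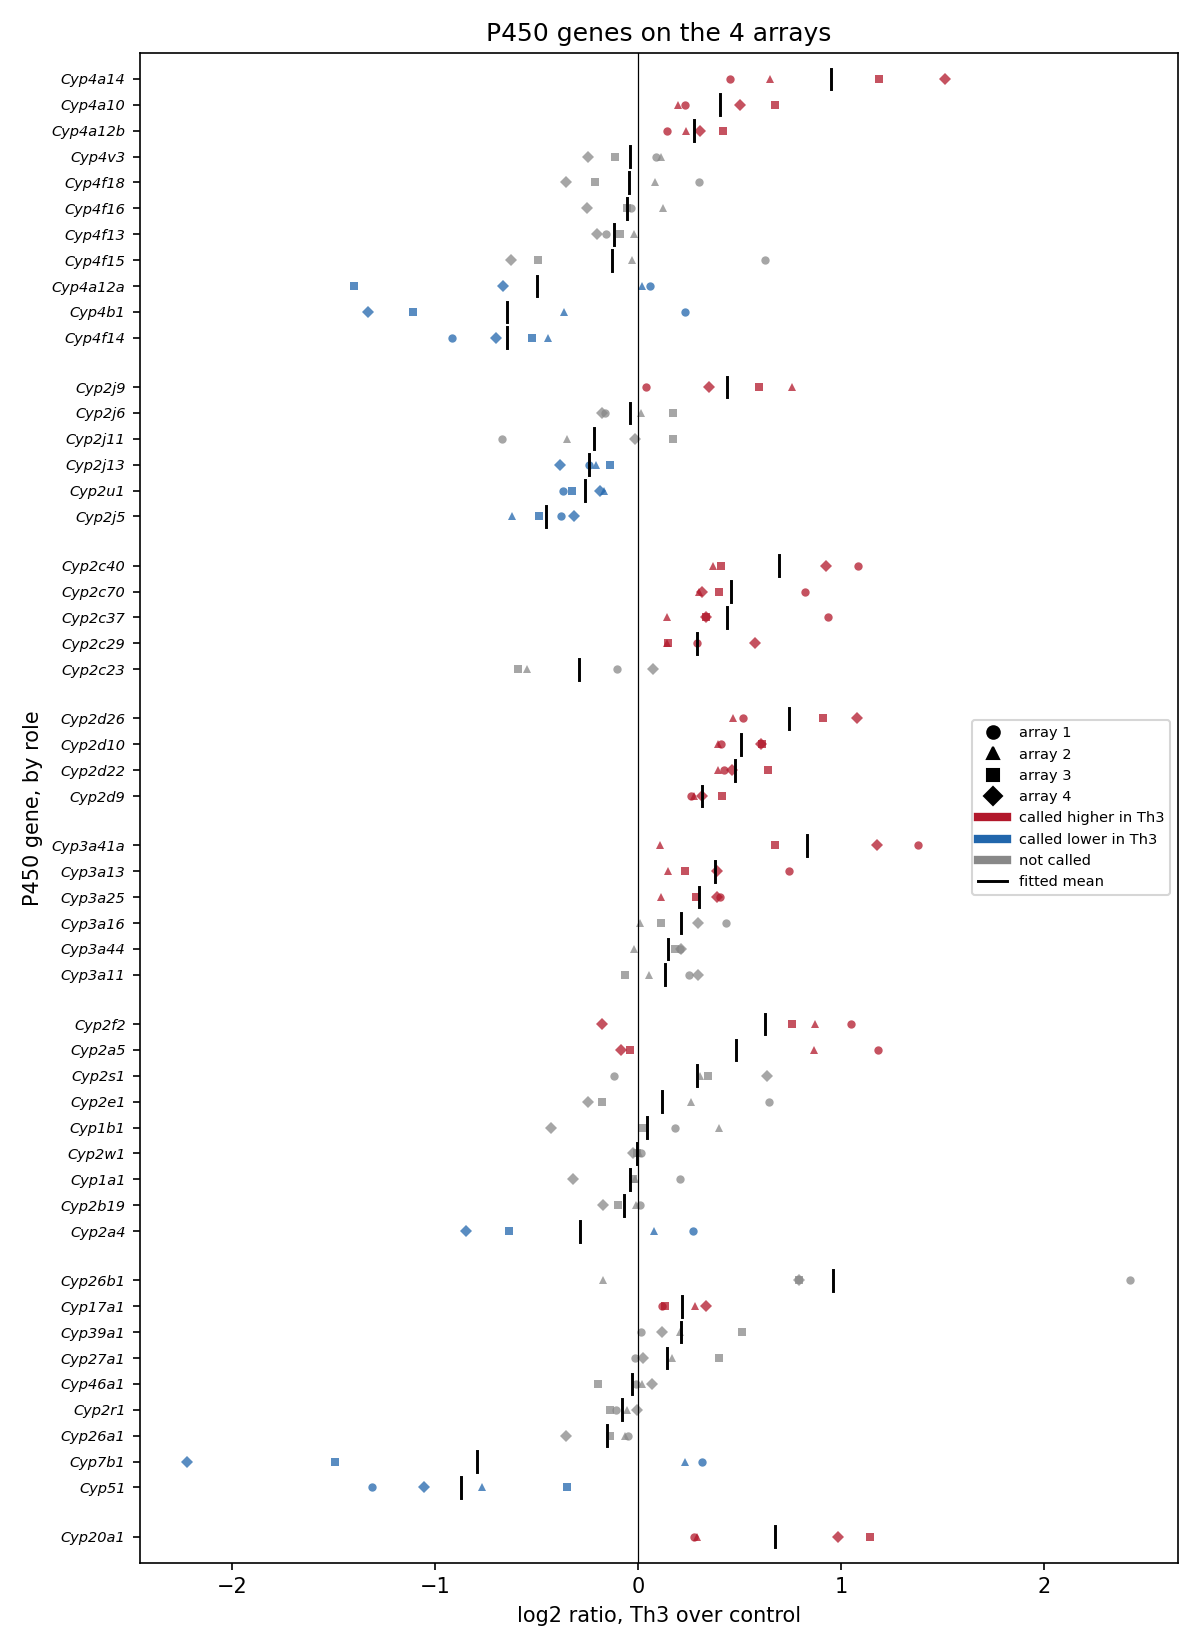
Log2 ratio of Th3 over control (x axis) for each of the 51 tested P450 genes (y axis, grouped by role), with 1 symbol per array, a black bar at the fitted mean and colours for the call. The 4 Cyp2d genes lie right of 0 on every array, Cyp51, Cyp4f14 and Cyp2j5 lie left of 0 on every array, and Cyp7b1 and Cyp4a12a lie at or right of 0 on arrays 1 and 2 and left of it on arrays 3 and 4.

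Among the 11 tested CYP4 genes, 3 were higher and 3 lower in Th3 kidney (54.5% called, against 21.5% of all genes). All 4 tested Cyp4a genes were called, with 3 higher and 1 lower, and their probes lie within 200 kb on chromosome 4. Cyp4a14, a fatty acid omega-hydroxylase of the mouse that PPAR-alpha induces in liver, read 15.47, 15.83, 15.97 and 16.07 in Th3 kidneys on arrays 1 to 4, against 15.01, 15.18, 14.78 and 14.56 in control kidneys. Every Th3 signal lay above every control signal, and the ratio was 0.95 ± 0.49 (SD, n = 4; adjusted p = 0.00129), a 1.93-fold level. Its probe lies at chr4:114984241-114984300 on the minus strand (mouse build mm8). The ratio was larger on arrays 3 and 4 (1.19 and 1.51) than on arrays 1 and 2 (0.45 and 0.65).

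Cyp4a10, which hydroxylates lauric and arachidonic acid, read 12.41, 13.02, 13.07 and 12.91 in Th3 kidneys, against 12.17, 12.82, 12.39 and 12.41 in control kidneys. The groups overlapped, but within each array Th3 was the higher sample, and the ratio was 0.40 ± 0.23 (adjusted p = 0.00640). Its 2 other probes had ratios of 0.40 and 0.46, and on arrays 1 and 2 they lay between -0.02 and 0.07. Cyp4a12b rose by less, with a ratio of 0.28 ± 0.12 (adjusted p = 0.0169), positive on 4 of 4 arrays. That call was lost without array 2 (adjusted p = 0.0713) and without array 3 (adjusted p = 0.0504). Cyp4a31, another Cyp4a gene whose array name fell outside the naming rule, had 0.44 ± 0.08 (adjusted p = 0.00417).

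Cyp4a12a, the major arachidonate omega-hydroxylase of mouse kidney and higher in males, went the other way. It read 8.46, 8.83, 8.93 and 9.27 in Th3 kidneys, against 8.40, 8.81, 10.33 and 9.94 in control kidneys. Th3 and control were level on arrays 1 and 2 (ratios 0.06 and 0.02), and Th3 was lower on arrays 3 and 4 (-1.40 and -0.66). The fitted ratio was -0.49 ± 0.69 (adjusted p = 0.0267), and the adjusted p was 0.218 without the dye term. The probes of Cyp4a12a and Cyp4a12b, whose genes are close copies, are separate 60-base oligonucleotides at chr4:114830670-114830729 and chr4:114931989-114932923 (mm8). How much signal each took from the other transcript was not tested.

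The other CYP4 calls were decreases. Cyp4f14, a hydroxylase of leukotriene B4 in mouse, read 7.92, 8.44, 8.44 and 8.43 in Th3 kidneys, against 8.84, 8.88, 8.96 and 9.13 in control kidneys. The groups did not overlap, and the gene fell by 0.65 ± 0.21 on the log2 scale (adjusted p = 0.00575). The other 4 tested Cyp4f genes, Cyp4f13, Cyp4f15, Cyp4f16 and Cyp4f18, had ratios between -0.13 and -0.04 and were not called. Cyp4v3, a fatty acid hydroxylase, had a ratio of -0.04 and was not called. Cyp4b1, which activates foreign compounds in rodent kidney and depends on androgen in male mice, had a ratio of -0.64 ± 0.71 (adjusted p = 0.00879), from 0.23 on array 1 to -1.33 on array 4. Its adjusted p was 0.139 without the dye term.

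**Figure D2:**
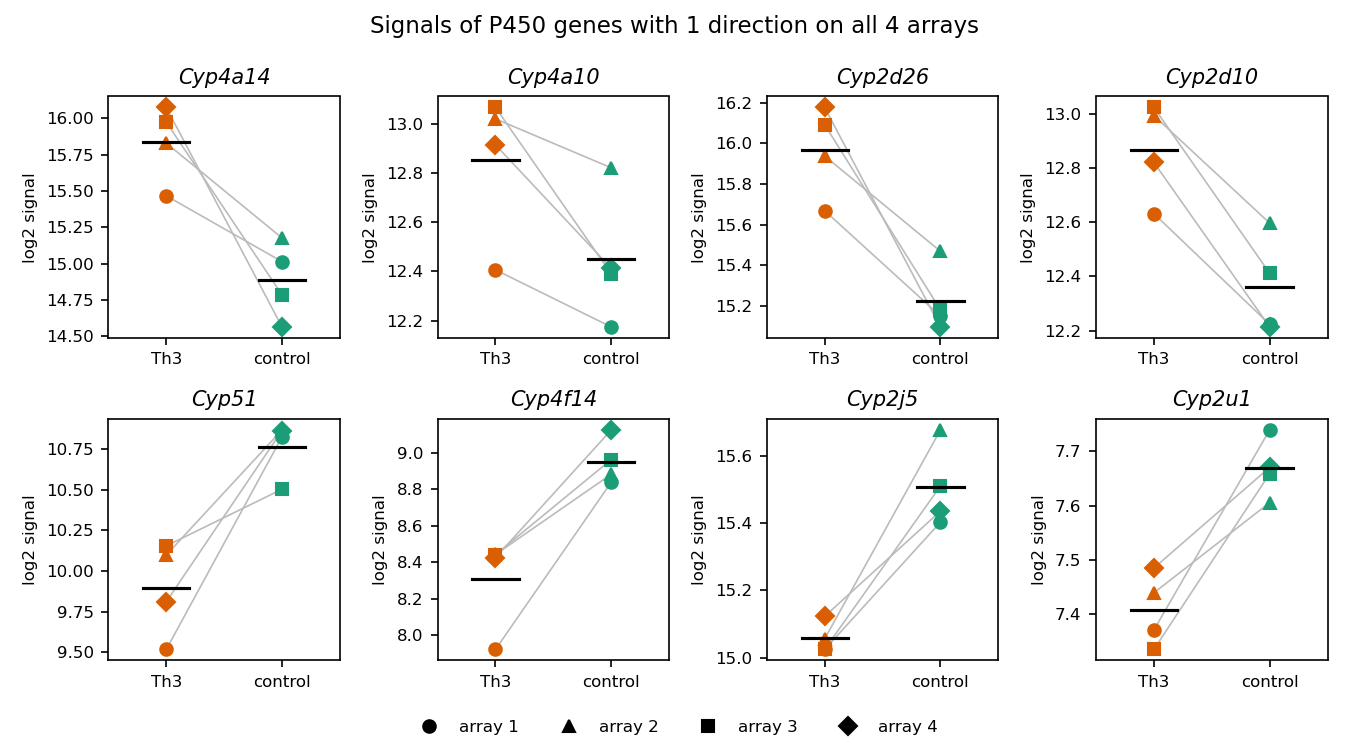
Log2 signal (y axis of each panel) of 8 P450 genes in Th3 samples (orange, left) and control samples (green, right), with 1 symbol per array, grey lines joining the samples of an array and black bars at group means. Th3 lies above control for Cyp4a14 and Cyp2d26 and below it for Cyp51, Cyp4f14, Cyp2j5 and Cyp2u1, without overlap, whereas Cyp4a10 differs within arrays and overlaps between them.

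The arachidonate epoxygenases of the Cyp2j cluster on chromosome 4 and the related Cyp2u1 gave 1 increase and 3 decreases among 6 tested genes. The share called was 66.7%, against 21.5% of all genes. Cyp2j5, the abundant CYP2J enzyme of mouse kidney and regulated by androgen, read 15.02, 15.06, 15.02 and 15.12 in Th3 kidneys, against 15.40, 15.68, 15.51 and 15.44 in control kidneys. The groups did not overlap, and it fell by 0.45 ± 0.13 (adjusted p = 0.00691), with a ratio of -0.39 at its second probe. Cyp2u1, a fatty acid hydroxylase, read 7.37, 7.44, 7.33 and 7.48 in Th3 kidneys, against 7.74, 7.61, 7.66 and 7.67 in control kidneys. It was lower on all 4 arrays without overlap, by 0.26 ± 0.10 (adjusted p = 0.0281), and that call was lost without array 1 (adjusted p = 0.151) or array 3 (adjusted p = 0.0852).

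Cyp2j9 was higher, at 10.28, 10.72, 10.72 and 10.48 in Th3 kidneys, against 10.23, 9.96, 10.12 and 10.13 in control kidneys. The groups did not overlap, although array 1 showed almost no difference, and the ratio was 0.44 ± 0.31 (adjusted p = 0.0420). The call was lost without array 2, 3 or 4 (adjusted p from 0.0730 to 0.149). Cyp2j6 and Cyp2j11 had ratios of -0.04 and -0.22 and were not called.

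Cyp2j13 was lower by 0.24 ± 0.10 at its brightest probe (adjusted p = 0.0361), on 4 of 4 arrays, and by 1.00 ± 1.02 at another. The second probe read 0.16 and -0.47 on arrays 1 and 2 and -2.06 and -1.62 on arrays 3 and 4, so the probes of the gene differed in size by over 1.5 times. The call at the brightest probe was lost without array 1 (adjusted p = 0.118), array 2 (adjusted p = 0.0824) or array 4 (adjusted p = 0.0879). The start of that probe (chr4:95537632-95548615, mm8, minus strand) matches 28 of 30 bases at the end of the probe for the neighbouring Cyp2j11 (chr4:95789644-95789703, mm8, minus strand). The shared stretch is shown to let the closeness of the cluster's copies be seen, with the differing bases in capitals.
Cyp2j13: atgggcagtttaagaagaGagaatcTtttc
Cyp2j11: atgggcagtttaagaagaAagaatcCtttc
On arrays 1 to 4 the whole Cyp2j13 probe had ratios of -0.24, -0.20, -0.14 and -0.38. The whole Cyp2j11 probe had -0.67, -0.35, 0.17 and -0.01. The arrays ranked differently at the 2 probes, and how much of either signal came from the other transcript was not tested.

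The Cyp2d genes on chromosome 15, whose human counterpart CYP2D6 oxidises many drugs, were called higher in 4 of 4 tested members. Cyp2d26 read 15.67, 15.94, 16.09 and 16.18 in Th3 kidneys, against 15.15, 15.47, 15.18 and 15.10 in control kidneys. Th3 lay above control without overlap, and the ratio was 0.75 ± 0.30 (adjusted p = 0.00123). Cyp2d10 read 12.63, 12.99, 13.02 and 12.82 in Th3 kidneys, against 12.22, 12.60, 12.41 and 12.21 in control kidneys. These groups were also apart, with the closest samples 12.63 and 12.60, and the ratio was 0.51 ± 0.12 (adjusted p = 0.00236). A second Cyp2d10 probe had a ratio of 0.01 and was not called.

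Cyp2d22 and Cyp2d9 had smaller spreads between arrays, with ratios of 0.48 ± 0.11 (adjusted p = 0.00390) and 0.32 ± 0.07 (adjusted p = 0.00997). Both were positive on 4 of 4 arrays, and their other probes had ratios between 0.44 and 0.51. These 4 genes were called under all 14 other settings of the processing. Cyp2d names outside the naming rule for members were called in either direction, Cyp2d12 at 0.23 and Cyp2d34 at -0.39. The increase was thus not shared by every Cyp2d name on the array.

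Promoters were available for 41 of the 51 tested genes in a RefSeq table of build GRCm38.p6, with none for Cyp17a1, Cyp2c23, Cyp2d22, Cyp2u1, Cyp39a1, Cyp4a10, Cyp4a12a, Cyp4a12b, Cyp4a14 and Cyp7b1. After the values were known, 17 short motifs were searched on both strands of the entries, which run from 250 bases before the transcript start to 50 after it. The direct repeat AGGNCANAGGNCA, the kind of element bound by PPAR-alpha with RXR and by HNF4-alpha, occurred in 0.381% of all promoters and, among the P450 genes, in Cyp2d10 and Cyp2d9. The 250 bases upstream of these 2 genes are shown because they carry the repeat at nearly the same distance from the start (-57 and -54), with the repeat in capitals. They come from chr15:82407195-82407444 (minus strand) and chr15:82452127-82452376 (plus strand).
Cyp2d10: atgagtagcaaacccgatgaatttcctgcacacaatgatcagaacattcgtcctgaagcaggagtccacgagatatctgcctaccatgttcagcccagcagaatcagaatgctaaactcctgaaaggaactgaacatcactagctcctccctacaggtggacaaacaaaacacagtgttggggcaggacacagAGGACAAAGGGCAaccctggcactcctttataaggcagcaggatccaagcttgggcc
Cyp2d9: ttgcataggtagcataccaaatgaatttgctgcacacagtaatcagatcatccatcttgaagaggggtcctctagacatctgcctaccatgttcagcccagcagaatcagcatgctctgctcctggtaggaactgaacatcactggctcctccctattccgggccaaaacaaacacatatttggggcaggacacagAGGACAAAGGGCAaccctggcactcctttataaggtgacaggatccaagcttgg
A match describes the letters in this window, and binding was not measured. Among the 46 promoter entries of members, 17 held a TATAAA, against 13.6% of all promoter entries.

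The Cyp2c genes on chromosome 19 and the Cyp3a genes on chromosome 5 included 11 tested genes. Of these, Cyp3a16, Cyp3a25 and Cyp3a44 entered the fit only through their Th3 signals, as did the brightest probe of Cyp2c37. A count over the 11 is therefore not read as a direction. Where both groups had to be well above background, 8 genes were tested, Cyp2c37 by its other probe. Of these 8, 5 were called higher and 0 lower in the limma fit (5 and 1 at an unadjusted p under 0.05). Cyp2c40, an arachidonate-metabolising enzyme of the mouse, read 8.76, 9.17, 9.12 and 9.16 in Th3 kidneys, against 7.68, 8.80, 8.71 and 8.24 in control kidneys. Th3 was higher within every array, the groups overlapped slightly, and the ratio was 0.70 ± 0.36 (adjusted p = 0.0148). The call was lost without array 4 (adjusted p = 0.0556). Cyp2c70, which makes muricholic acids in mouse liver, had 8.15, 7.88, 7.66 and 7.64 in Th3 kidneys, against 7.32, 7.58, 7.26 and 7.33 in control kidneys. The groups did not overlap, the ratio was 0.46 ± 0.25 (adjusted p = 0.0161), and without array 3 the adjusted p was 0.0618.

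Cyp2c37 and Cyp2c29, enzymes of arachidonate and foreign compounds in mouse liver, had ratios of 0.44 ± 0.34 (adjusted p = 0.0467) and 0.29 ± 0.20 (adjusted p = 0.0476). At its brightest probe, the control sample of Cyp2c37 was well above background on 3 of 4 arrays. Its call was lost without array 1, 3 or 4 (adjusted p from 0.0944 to 0.130), and that of Cyp2c29 without array 1 (adjusted p = 0.109) or array 4 (adjusted p = 0.106). At its other probe Cyp2c37 had a ratio of 0.10, and in a limma fit over all probes neither probe was called (adjusted p = 0.0537 for the brightest and 0.293 for the other). Cyp2c23 (Cyp2c44 in the array annotation), the main epoxygenase of rodent kidney, read 11.90, 11.96, 11.92 and 12.01 in Th3 kidneys, against 12.00, 12.51, 12.51 and 11.94 in control kidneys. Control samples of arrays 2 and 3 stood above all others, and its ratio of -0.29 ± 0.33 was not called (adjusted p = 0.141). Leaving out array 1, 2, 3 or 4 in turn gave ratios of -0.40, -0.18, -0.12 and -0.46 for Cyp2c23.

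Cyp3a41a, a steroid and drug hydroxylase that is female-predominant in mouse liver, read 8.17, 8.19, 8.12 and 8.19 in Th3 kidneys, against 6.79, 8.08, 7.45 and 7.01 in control kidneys. The Th3 samples were within 0.07 of each other and the control samples within 1.29, and every Th3 sample lay above every control sample. The ratio was 0.84 ± 0.57 (adjusted p = 0.0283), and the call was lost without array 3 (adjusted p = 0.0598) or array 4 (adjusted p = 0.108). Cyp3a13 and Cyp3a25 were higher by 0.38 ± 0.26 (adjusted p = 0.0402) and 0.30 ± 0.13 (adjusted p = 0.0238), and Cyp3a25 was well above background in 2 of 4 control samples. Both calls were lost without array 1, 3 or 4, at adjusted p from 0.0855 to 0.125 for Cyp3a13 and from 0.0521 to 0.116 for Cyp3a25. Cyp3a11, Cyp3a16 and Cyp3a44 had ratios of 0.13, 0.21 and 0.15 and were not called. With Agilent's processed signals the ratios of the 4 genes whose brightest probes were kept only through Th3 signals were larger. They were 1.42 for Cyp2c37 (adjusted p = 0.0356), 1.70 for Cyp3a25 (adjusted p = 0.0105), 1.23 for Cyp3a16 (adjusted p = 0.100) and 1.06 for Cyp3a44 (adjusted p = 0.0809).

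The letters CAAAGTCCA, the core of an HNF4-alpha element known from CYP2C promoters, occurred in 0.475% of all promoters and in 5 P450 genes. These were Cyp2c40, Cyp2c70, Cyp3a41a, Cyp3a11 and Cyp3a16, of which the first 3 were called higher. No P450 promoter held both this motif and the direct repeat above. The upstream 250 bases of the called genes follow, with the motif in capitals, from chr19:39812815-39813064, chr19:40187287-40187536 and chr5:145720137-145720386 (GRCm38.p6, all minus strand).
Cyp2c40: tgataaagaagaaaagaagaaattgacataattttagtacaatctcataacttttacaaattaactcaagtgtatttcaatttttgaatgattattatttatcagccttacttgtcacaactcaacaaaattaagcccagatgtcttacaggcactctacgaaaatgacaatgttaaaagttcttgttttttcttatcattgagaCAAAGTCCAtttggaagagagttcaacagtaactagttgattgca
Cyp2c70: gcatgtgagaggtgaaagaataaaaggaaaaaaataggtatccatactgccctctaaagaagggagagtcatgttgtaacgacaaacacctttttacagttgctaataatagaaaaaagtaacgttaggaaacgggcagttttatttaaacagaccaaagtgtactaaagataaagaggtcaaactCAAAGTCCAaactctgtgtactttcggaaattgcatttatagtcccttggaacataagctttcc
Cyp3a41a: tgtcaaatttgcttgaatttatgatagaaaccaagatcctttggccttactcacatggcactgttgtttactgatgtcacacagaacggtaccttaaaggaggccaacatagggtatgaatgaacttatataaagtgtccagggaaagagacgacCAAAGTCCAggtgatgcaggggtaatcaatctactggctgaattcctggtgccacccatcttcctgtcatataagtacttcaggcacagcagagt
The motif started at -45 in Cyp2c40, -64 in Cyp2c70 and -95 in Cyp3a41a relative to the transcript start. Hnf4a itself, the receptor that gives the element its name, had a ratio of -0.05 ± 0.08 and was not called (adjusted p = 0.516).

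In 9 of the 11 Cyp2c and Cyp3a genes (81.8%, against 54.8% of all genes) the control samples spanned a wider range than the Th3 samples. In control kidneys 7 of these 11 genes had their signals in the order of arrays 2, 3, 4 and 1 from high to low. This order was picked after the values were seen, and 3.46% of all genes and 10% of the other P450 genes had it. Among the 7 genes whose brightest probe was well above background in every sample, 3 had this order. In Th3 kidneys none of the 11 had that order. Of 15 tested liver markers, limma called 13 higher and 0 lower (15 and 0 at an unadjusted p under 0.05). A marker could enter the fit through its Th3 signals alone, so this count is not read as a direction. The median ratio of the 15 liver markers was 0.66, and 4 of them had that order in control kidneys. Their summed linear signal was between 12516 and 15104 in Th3 kidneys, against 5668 to 8509 in control kidneys. The median ratio of the liver markers was 1.11, 0.32, 0.60 and 0.81 on arrays 1 to 4, and that of the Cyp2c and Cyp3a genes was 0.44, 0.12, 0.23 and 0.33. Albumin read 11.02, 11.07, 11.02 and 11.21 in Th3 kidneys, against 9.88, 11.07, 10.74 and 10.26 in control kidneys. The part of liver-type RNA in the P450 ratios was not tested. The P450 genes Cyp7a1, Cyp8b1 and Cyp1a2, known from liver, did not pass the signal rule. Cyp7a1 was well above background in 2 Th3 samples and 1 control sample, and the liver marker Tdo2 in 1 Th3 sample and 0 control samples. What these dim genes say about liver-type RNA was not tested.

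Among the other CYP1 and CYP2 enzymes of foreign compounds, 2 of 9 were higher and 1 was lower (33.3% called, against 21.5% of all genes). Cyp2f2, known from lung and liver, read 9.11, 9.25, 9.29 and 8.96 in Th3 kidneys, against 8.06, 8.37, 8.53 and 9.13 in control kidneys. It was higher on arrays 1 to 3 and not on array 4, with a ratio of 0.63 ± 0.55 (adjusted p = 0.0250, and 0.0821 without the dye term). Cyp1a1 and Cyp1b1, the classic targets of the aryl hydrocarbon receptor, had ratios of -0.04 ± 0.22 and 0.04 ± 0.35 and were not called. Cyp2e1, which oxidises ethanol and is raised by androgen in mouse kidney, had ratios of 0.65, 0.26, -0.18 and -0.25 on arrays 1 to 4 and was not called. Cyp2s1, Cyp2b19 and Cyp2w1 had ratios of 0.29, -0.07 and 0.00 and were not called either, although Cyp2s1 was called under 3 of 14 alternatives.

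Cyp2a5 (coumarin 7-hydroxylase) and Cyp2a4 (steroid 15-alpha-hydroxylase) are near-identical neighbours on chromosome 7 and were called in opposite directions. Cyp2a5 read 15.51, 15.50, 15.43 and 15.46 in Th3 kidneys, against 14.33, 14.63, 15.47 and 15.54 in control kidneys. Cyp2a4 read 15.20, 15.15, 15.14 and 15.07 in Th3 kidneys, against 14.93, 15.07, 15.77 and 15.92 in control kidneys. In both genes the Th3 samples were within 0.13 of each other while the control samples of arrays 3 and 4 stood above those of arrays 1 and 2, by 1.02 in Cyp2a5 and 0.84 in Cyp2a4. The fitted ratios were 0.48 ± 0.64 for Cyp2a5 (adjusted p = 0.00635) and -0.28 ± 0.54 for Cyp2a4 (adjusted p = 0.0259), and without the dye term neither was called (adjusted p = 0.203 and 0.370). The Cyp2a4 call was also lost without array 2 (adjusted p = 0.104) or array 4 (adjusted p = 0.0740).

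A further Cyp2a4 probe (chr7:26023713-26023772, mm8, plus strand) overlaps the Cyp2a5 probe (chr7:26551910-26551969, mm8, plus strand) in 38 bases, of which 35 match. The first 30 of these shared bases are shown because all 3 differences lie in them, in capitals.
Cyp2a5: aggacacAGAgtagacttgcagaggatatt
Cyp2a4: aggacacTTCgtagacttgcagaggatatt
That Cyp2a4 probe had ratios of -0.08, -0.32, -1.01 and -1.30 on arrays 1 to 4, against 1.18, 0.87, -0.04 and -0.08 at the Cyp2a5 probe. Both probes gave lower ratios on arrays 3 and 4 than on arrays 1 and 2, and signal shared between the transcripts was not measured.

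The enzymes of sterols, steroids, bile acids, retinoids and vitamin D gave 1 increase and 2 decreases among 9 tested genes. The share called was 33.3%, against 21.5% of all genes. Cyp51, lanosterol 14-alpha-demethylase of cholesterol synthesis, read 9.52, 10.10, 10.15 and 9.81 in Th3 kidneys, against 10.82, 10.87, 10.50 and 10.86 in control kidneys. The groups did not overlap, and it fell by 0.87 ± 0.41 (adjusted p = 0.00796), to 54.7% of control. Its 2 other probes had ratios of -0.73 and -0.74. The brightest probe lies at chr5:4089242-4089301 (mm8, minus strand). Of 22 tested cholesterol synthesis genes 4 were higher and 2 lower (27.3% called, against 21.5% of all genes), with a median ratio of 0.04. Mvd, mevalonate decarboxylase, had -0.57 ± 0.18 (adjusted p = 0.00208), and Msmo1, the methylsterol oxidase that acts after Cyp51, had 0.37 ± 0.41 (adjusted p = 0.0281). Sqle, squalene epoxidase, had a ratio of 0.01 and was not called.

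Cyp7b1, oxysterol 7-alpha-hydroxylase, read 10.25, 9.93, 9.95 and 10.15 in Th3 kidneys, against 9.93, 9.70, 11.44 and 12.37 in control kidneys. The Th3 samples were within 0.32 of each other and the control samples within 2.67, since the control samples of arrays 3 and 4 stood far above the rest. The ratio was 0.32, 0.23, -1.49 and -2.22 on arrays 1 to 4, and the fitted -0.79 ± 1.27 was called (adjusted p = 0.00667) with the dye term and not without it (adjusted p = 0.271). Cyp17a1, steroid 17-alpha-hydroxylase, was higher by 0.22 ± 0.11 (adjusted p = 0.04996), and that call was lost without any 1 of the 4 arrays (adjusted p from 0.0510 to 0.233). Of 9 tested adrenal markers limma called 0, and at an unadjusted p under 0.05 0 were higher and 1 lower, while the adrenal P450 genes Cyp11a1, Cyp11b2 and Cyp21a1 were well above background in Th3 or control samples on 0 arrays.

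Cyp26b1, which breaks down retinoic acid, read 11.61, 11.15, 10.85 and 10.08 in Th3 kidneys, against 9.18, 11.32, 10.05 and 9.28 in control kidneys. Its ratio of 0.96 ± 1.08 was not called (adjusted p = 0.110) and was 2.43 on array 1 and -0.17 on array 2. The groups overlapped. Leaving out array 1 gave a ratio of 0.31 and leaving out array 2 gave 1.61, with the spread then coming from arrays 3 and 4 alone, so no test is read from these values. Cyp26a1 had -0.15 and was not called. Among 14 tested retinoid genes 2 were higher and 3 lower (35.7% called, against 21.5% of all genes). Rbp4, the plasma retinol carrier, had a ratio of 0.99 ± 0.42 (adjusted p = 0.00349). Cyp27a1, Cyp39a1, Cyp46a1 and Cyp2r1, of sterol, bile acid and vitamin D metabolism, had ratios between -0.08 and 0.21 and were not called, and without array 4 Cyp39a1 was called at 0.31 (adjusted p = 0.0381).

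Cyp20a1, a P450 with no settled substrate, read 8.84, 8.91, 8.96 and 8.72 in Th3 kidneys, against 8.56, 8.62, 7.81 and 7.74 in control kidneys. It was higher on 4 of 4 arrays without overlap, by 0.68 ± 0.46 (adjusted p = 0.00154). Its ratio was 0.28 and 0.29 on arrays 1 and 2 and 1.15 and 0.99 on arrays 3 and 4.

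**Figure D3:**
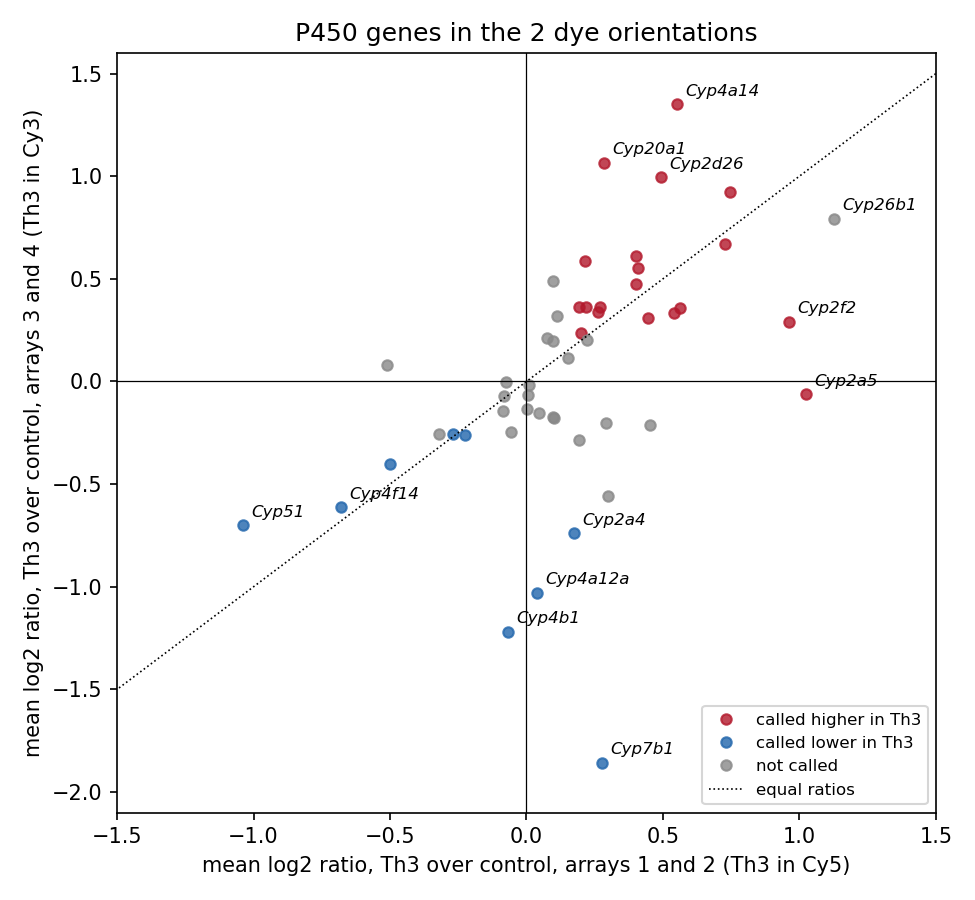
Mean log2 ratio of Th3 over control of each tested P450 gene on arrays 3 and 4 (y axis) against arrays 1 and 2 (x axis), coloured by call, with a dotted line of equal ratios. Cyp7b1, Cyp4b1, Cyp4a12a and Cyp2a4 lie far below the line and Cyp20a1 and Cyp4a14 above it.

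The dye term was called for 4 P450 genes: Cyp20a1 (adjusted p = 0.0444), Cyp2a5 (adjusted p = 0.0424), Cyp2a4 (adjusted p = 0.0444) and Cyp7b1 (adjusted p = 0.0388). It was called for 175 of all genes. The dye orientation and the identity of the samples cannot be told apart, because arrays 1 and 2 and arrays 3 and 4 hold different samples. Of the 19 increases, 18 had a positive mean in both orientations, Cyp2a5 being the exception. Of the 9 decreases, 6 had a negative mean in both, and Cyp4a12a, Cyp2a4 and Cyp7b1 did not.

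The control samples spanned a wider range than the Th3 samples in 30 of the 51 P450 genes (58.8%, against 54.8% of all genes), with median ranges of 0.33 in Th3 kidneys and 0.37 in control kidneys. A range over 1 log2 unit was found in the control samples for 10 P450 genes (19.6%, against 1.54% of all genes) and in the Th3 samples for 1, Cyp26b1 (1.96%, against 0.699% of all genes). Macrophage and lymphocyte markers also split by dye orientation, with 13 of 16 called lower and 0 higher (14 and 0 at an unadjusted p under 0.05) and median ratios of -0.10, -0.15, -1.07 and -0.85 on arrays 1 to 4. Their summed linear signal was between 16867 and 28299 in Th3 kidneys, against 21410 to 52743 in control kidneys. A macrophage or lymphocyte marker could enter the fit through its control signals alone, so this count is not read as a direction. The part of these cells in the P450 ratios was not tested.

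**Figure D4:**
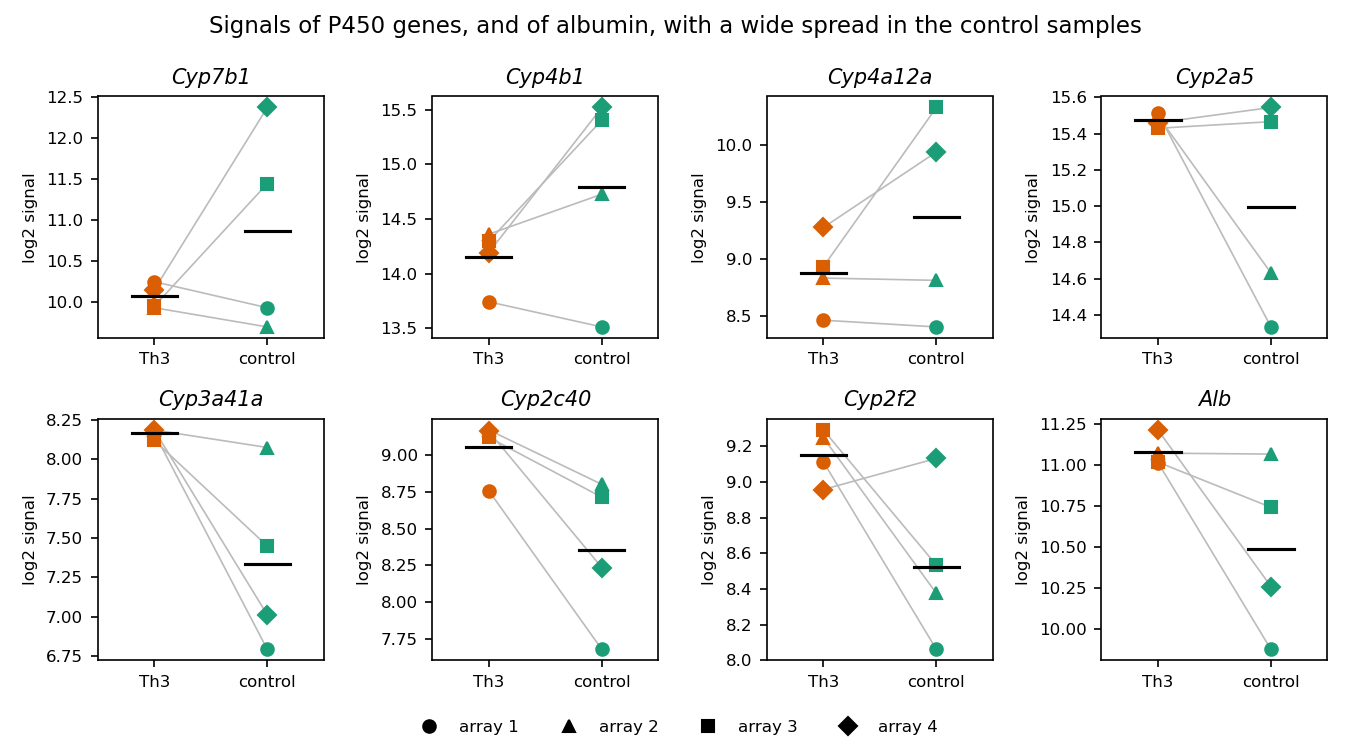
Log2 signal (y axis of each panel) of 7 P450 genes and of albumin (Alb) in Th3 samples (orange, left) and control samples (green, right), with 1 symbol per array, grey lines joining the samples of an array and black bars at group means. Control samples span a wider range than Th3 samples in every panel. They lie apart by dye orientation for Cyp7b1, Cyp4b1, Cyp4a12a, Cyp2a5 and, by a small gap, Cyp2f2. For Cyp3a41a, Cyp2c40 and Alb they lie in the order of arrays 2, 3, 4 and 1.

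Of 23 tested genes of mouse kidney known for sex bias or androgen dependence, 14 were called lower in Th3 kidney and 2 higher. These were 60.9% and 8.70%, against 10.6% and 10.9% of all genes. The list was not split by the direction of the bias. Its median ratio was -0.37, -0.23, -0.33 and -0.44 on arrays 1 to 4. The mean ratios of the 2 dye orientations gave medians of -0.34 (arrays 1 and 2) and -0.39 (arrays 3 and 4) for this list. Xist, expressed from the inactive X chromosome, read between 13.70 and 14.01 in Th3 kidneys, against 13.78 to 13.96 in control kidneys, and its ratio of -0.02 ± 0.18 was not called (adjusted p = 0.870). The Y-linked genes Kdm5d and Uty were well above background on 0 arrays in either group. Eif2s3y was well above background in 4 of 4 Th3 samples and 0 of 4 control samples, at least 1.27-fold higher in Th3 kidney (adjusted p = 0.00557). Its probe was kept only through its Th3 signals, so the adjusted p is not read as a test of direction. The summed linear signal of Xist and Eif2s3y was 13414 to 16541 in Th3 kidneys, against 14149 to 16060 in control kidneys. Nearly all of it came from Xist, so the Eif2s3y signal was dim. The sex of the samples was not tested. Ddx3y, also Y-linked, was well above background in 3 Th3 samples and 0 control samples. Proximal tubule markers, of the segment in which most renal P450 is found, were called lower in 14 of 26 and higher in 2, with a median ratio of -0.28. These were 53.8% and 7.69%, against 10.6% and 10.9% of all genes. Kap, Slc7a13 and Acsm3 are in both this list and that of sex-biased or androgen-dependent genes. A gene could enter the fit through the signals of 1 group alone, so neither count is read as a direction.

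The partners that pass electrons to P450 enzymes fell or were not called. Of 10 tested, limma called 3 lower and 0 higher (30% called, against 21.5% of all genes), also at an unadjusted p under 0.05. Cyb5r1, a cytochrome b5 reductase, fell by 0.41 ± 0.21 (adjusted p = 0.00629). Por, the P450 reductase of the endoplasmic reticulum, fell by 0.34 ± 0.20 (adjusted p = 0.0268), and Fdx2, a mitochondrial ferredoxin, by 0.26 ± 0.03 (adjusted p = 0.0168). All 3 were negative on 4 of 4 arrays. Cyb5a and Fdx1 had ratios of -0.01 and 0.02 and were not called.

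Of 28 tested transcription factors known to act on P450 genes, 3 were higher and 4 lower (25% called, against 21.5% of all genes). Ahr, the dioxin receptor, was higher by 0.38 ± 0.03 (adjusted p = 0.00598), with 0.42, 0.35, 0.39 and 0.36 on arrays 1 to 4. Cebpb and Srebf1 were higher by 0.54 ± 0.15 (adjusted p = 0.00278) and 0.55 ± 0.35 (adjusted p = 0.0122), and Esr1, the oestrogen receptor, was lower by 1.25 ± 0.52 (adjusted p = 0.000921). Rxrg, Nr1h3 and Cebpa were the other decreases. The receptors most tied to Cyp4a, Cyp2c and Cyp3a genes were not called: Ppara had 0.08, Nr1i2 (the pregnane X receptor) 0.01 and Nr1i3 (the constitutive androstane receptor) 0.10.

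Among 36 tested fatty acid oxidation and PPAR-alpha target genes, to which Cyp4a10 and Cyp4a14 are often counted, 3 were higher and 7 lower, with a median ratio of -0.05. The share called was 27.8%, against 21.5% of all genes. Acot1, an acyl-CoA thioesterase, was higher by 0.76 ± 0.47 (adjusted p = 0.0187). Slc27a2, a fatty acid transporter, was lower by 0.48 ± 0.46 (adjusted p = 0.00780), and Pdk4 had 0.28 ± 0.82 and was not called. Among 16 tested eicosanoid genes 1 was higher and 2 were lower (18.75% called, against 21.5% of all genes). Ephx2, the soluble epoxide hydrolase that breaks down the CYP epoxides, was lower by 0.38 ± 0.15 (adjusted p = 0.00741) and Ltc4s, leukotriene C4 synthase, by 0.60 ± 0.35 (adjusted p = 0.00380). Among 17 tested steroid genes outside the P450 family 2 were higher and 4 lower (35.3% called, against 21.5% of all genes). Hsd11b1 had a ratio of 0.56 ± 0.28 (adjusted p = 0.0140) and Akr1c18 one of -1.54 ± 0.92 (adjusted p = 0.00134).

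In the authors' deposited table all 51 probes used here for P450 genes had a mean ratio of the same sign as here. Of the 28 called genes, 17 had an adjusted p under 0.05 in the authors' deposited table.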

How the data were processed

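Kidney RNA of 4 Th3 and 4 control samples was hybridised in pairs to 4 Agilent arrays of design 014868, annotated on mm8. Per the file headers, spot and background intensities came from Agilent Feature Extraction 9.5.3.1 and were not normalized. Processed intensities, background-subtracted and dye-normalized per the file headers, and the scanner's log10 ratios, used to check directions, were deposited too. The authors deposited log2 ratios, a signed fold given as a score, and adjusted p-values, for which the sources used here name no method.

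Mean signals were corrected with normexp (offset 50), normalized by loess (span 0.3, 4 iterations) and averaged per probe in R 4.3.3 with limma 3.58.1 and data.table (1.17.8). Probes well above background in Th3 or in control samples on all 4 arrays were kept, and each gene was represented by its brightest probe. Ratios were fitted with lmFit and eBayes on dye and Th3 terms (2 residual and 4.52 prior degrees of freedom), with Benjamini-Hochberg adjustment over 17628 genes and calls under 0.05. All adjusted p-values of genes are from this limma fit. Calls of a gene's further probes are from a second limma fit over 26434 probes. P-values measure the spread within each dye orientation, which may be technical, and the number of arrays limits precision. All arrays share 1 slide and 1 scan date. In each channel 61.8% to 72.2% of the probes exceeded background. The script was tested on simulated data.

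The P450 genes, the 16 gene lists and the motifs were chosen with earlier results of these data known. Named were Cyp4a14, all Cyp4a genes, the 10 largest called increases and decreases with 1 sign on every array (only 5 decreases had that), the smallest p of each P450 family, and per list the called genes with the largest increase and decrease. Other genes named were chosen after their values were seen. Some list genes are not reported here. In all, 14 alternatives were run. Promoters are RefSeq's (GRCm38.p6).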

Additional observations from a re-analysis of the deposited data

Results flagged for a closer look

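Cyp3a44 stood out on array 2, where its log2 ratio was -0.017, while the other arrays lay between 0.18 and 0.21. A gap of this kind is expected by chance in about 1 of 20 genes, and 51 were examined.

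For 4 P450 genes the ratio differed between the dye orientations by the dye term of the limma fit. The mean ratio of arrays 3 and 4 minus that of arrays 1 and 2 was 0.78 for Cyp20a1, -1.08 for Cyp2a5, -0.91 for Cyp2a4 and -2.13 for Cyp7b1. In each of these genes the control signals moved more than the Th3 signals: from arrays 1 and 2 to arrays 3 and 4 the Th3 mean of Cyp7b1 changed by -0.04 and the control mean by 2.09, and the Th3 mean of Cyp2a5 changed by -0.06 and the control mean by 1.02. Whether dye or sample accounts for this cannot be told apart.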

How the results depend on the processing

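Of the 28 calls, 8 held under all 14 alternatives: Cyp4a14, Cyp2d26, Cyp2d10, Cyp2d22 and Cyp2d9 as increases and Cyp51, Cyp4f14 and Cyp2j5 as decreases. No called gene changed sign under any of them. Without the dye term 12 P450 genes were called higher and 4 lower, among 1990 genes in all, and with the dye orientation as a random block 6 and 3, among 1199. By construction these settings add the spread between orientations. In every fit without 1 array the residual spread comes only from the dye orientation that keeps both its arrays. Calls kept, lost or gained in those fits therefore describe how the results depend on an array and are not read as tests. Leaving out 1 array gave 11 to 18 P450 increases and 8 to 9 decreases, among 2571 to 3191 genes in all. The ratio of Cyp4a14 stayed called, and the median ratio of the P450 genes moved by less than the SD between arrays (0.08). Agilent's processed signals moved 4 P450 ratios by over 1.5 times: Cyp3a25 (1.70, against 0.30), Cyp2c37 (1.42, against 0.44), Cyp3a16 (1.23, against 0.21) and Cyp3a44 (1.06, against 0.15). Among genes not called, leaving out 1 array put Cyp1b1 between -0.068 and 0.157 and Cyp46a1 between -0.095 and 0.038. Cyp1b1 turned negative without array 2 (-0.010) or array 3, and Cyp46a1 positive without array 3. Limits: 5 P450 genes were not well above background in every control sample, and near-identical copies (Cyp2a4 and Cyp2a5, Cyp4a12a and Cyp4a12b) may share signal. Each array pairs 1 Th3 with 1 control sample, so the fit on ratios is itself paired.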

Other observations

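Among 11 tested endothelial markers 2 were higher and 0 lower in the limma fit (2 and 1 at an unadjusted p under 0.05), with a median ratio of 0.11. The share called was 18.2%, against 21.5% of all genes. Vwf, the von Willebrand factor of vessel lining, was higher by 1.08 ± 0.17 (adjusted p = 0.000728) on 4 of 4 arrays, and Flt1, a VEGF receptor, by 0.73. Among 13 tested distal nephron and collecting duct markers 1 was higher and 1 lower (15.4% called, against 21.5% of all genes). Aqp3, a water channel of the collecting duct, had 0.69 ± 0.15 (adjusted p = 0.00132), and Pvalb, a calcium-binding protein of the distal convoluted tubule, had -0.45 ± 0.22 (adjusted p = 0.00917).

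Among 11 tested adipose markers 2 were higher and 2 lower (36.4% called, against 21.5% of all genes). Adipoq, adiponectin, had 1.00 ± 1.02 (adjusted p = 0.0408), at 1.29, 1.88 and 1.31 on arrays 1 to 3 and -0.47 on array 4. Ucp1 and Cidea, of brown fat, were lower, with Ucp1 at -3.40 ± 0.93 (adjusted p = 0.00156).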
